A study of Brugia malayi with 68 samples.

Results

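Of the 11590 genes counted in the filarial nematode Brugia malayi, 150 carried many reads in both adult sexes and few in microfilariae, the first-stage larvae that females release into the host. They were chosen on mean CPM, the read count of a gene scaled to the same total for every library, in the untreated libraries alone. A gene needed a mean of at least 5 CPM in females and in males, with the sexes within 3-fold of each other, and 6696 genes met this. Of these, the 150 with the highest ratio of the lower adult mean to the microfilaria mean plus 1 CPM were kept, and they are called the adult genes here. The files pair no identifier with a gene name, and 0 of the identifiers occur in the reference list of 11688 genes, so members are given by identifier with neither function nor sequence.

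Brugia malayi is one of the worms that cause lymphatic filariasis, and adults of both sexes live for years in the lymphatic vessels of the human host, where females bear live young. Adult worms have grown through every moult and carry a mature gonad, gut, muscle and cuticle. A microfilaria is a very small larva that circulates in blood without growing or moulting until a mosquito takes it up. Female worms hold developing embryos and formed microfilariae in the uterus, so RNA of a whole female includes that of its young.

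The worms came from Mongolian gerbils, a laboratory host, that were infected in the peritoneal cavity with infective larvae and kept for 4 months. Treatment was ivermectin at 0.2 mg/kg, diethylcarbamazine at 6 mg/kg, albendazole at 1 mg/kg, or no drug. The labels name DMSO for this last group while the protocol describes it as untreated, and it is called untreated here. As textbook background, albendazole binds nematode tubulin and ivermectin opens glutamate-gated chloride channels of nerve and muscle, while the target of diethylcarbamazine is less certain. Worms were collected on day 1 or day 7 after treatment and separated into females, males and microfilariae. The 68 libraries form 24 groups, 20 with 3 libraries and 4, the day 7 microfilaria groups, with 2. There were 24 female, 24 male and 20 microfilaria libraries, of which 17 were untreated. The series' design text describes 3 biological replicates, each a round in which every treatment was given. The labels do not say how many worms or animals a library holds, so the p-values measure the spread between these libraries. Since whole worms were sequenced, fewer cells of a type and less RNA per cell cannot be told apart.

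Libraries held between 2112032 and 37822431 counted reads, with a median of 13426840. Some stood apart from their groups. In the day 1 female libraries of replicate 3 from untreated, diethylcarbamazine and ivermectin animals, the 100 most counted genes took 20.7%, 20.8% and 19.7% of the reads, against 12.3% in the albendazole library of the same round. In the day 7 male ivermectin library of replicate 3 they took 21.3%, against at most 17.8% in the other male libraries. Its TMM factor, the trimmed-mean scaling used in the tests, was 0.783, and the adult genes had their lowest male mean there, 5.98 on the log2(CPM + 1) scale. It was below the mean of its replicates 1 and 2 in 123 of the 150 adult genes, with a median difference of -0.40. This low level and these differences are on CPM before TMM scaling. On the TMM scale the mean level in this library was 6.33, against a mean of 6.28 (range 6.12 to 6.40) over the male drug libraries. Genes restricted to females in the untreated libraries (150 genes) averaged 3.6 to 3.94 on the log2(CPM + 1) scale in 4 male libraries, against 1.43 to 1.99 in the other male libraries. Those were replicate 1 of albendazole day 1, diethylcarbamazine day 1 and diethylcarbamazine day 7, and replicate 2 of ivermectin day 1. In the same way, genes restricted to males (150 genes) averaged 2.60 and 2.19 in 2 female libraries, untreated day 7 replicate 2 and diethylcarbamazine day 1 replicate 1, and at most 0.91 in the other female libraries. None of the adult genes (0) is in either list. With no marker gene to be named, the stage labels were read only against such lists.

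The gene that ranked first, WBGene00230510, has the highest score of the rule. Its level in untreated females ran from 496 to 2514 CPM with a median of 1716 over 6 libraries. In untreated males it ran from 2485 to 3071 CPM with a median of 2724. Untreated microfilariae gave 4.95, 6.75 and 6.11 CPM on day 1 and 6.44 and 6.26 CPM on day 7. The ranges of adults and larvae are far apart, and by construction that separation is a description and not a test. WBGene00228588, which ranked second, had a median of 140 CPM in untreated females and 164 CPM in untreated males, and it had between 0 and 0.491 CPM in untreated microfilariae.

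The other end of the list is much closer to the rest of the genes. The score of the rule was 231 for WBGene00230510 and 118 for WBGene00228588, had a median of 13.0, and reached 7.19 for WBGene00229660 and 7.18 for WBGene00221798, the last members. The first genes left out, WBGene00224315 and WBGene00230089, had 7.14 and 7.13, so the boundary is not a gap. WBGene00221798 averaged 21.8 CPM in untreated females, 53.3 CPM in males and 2.04 CPM in microfilariae. WBGene00224315 averaged 83.5, 40 and 4.6 CPM in the same order.

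Few of the adult genes were silent in microfilariae. Their mean in untreated microfilariae ranged from 0.0159 to 53.7 CPM with a median of 2.08 CPM. It was under 1 CPM for 48 genes and at least 5 CPM for 38. In at least 1 of the 5 untreated microfilaria libraries 16 genes had no read, and 0 genes had none in all 5. Low larval counts set the precision here: WBGene00233050 had 4 reads in all 15 microfilaria libraries of treated animals together, so no fold is given for it. Together the adult genes took 1.08% to 1.95% of the reads of a female library, 1.77% to 2.20% of a male library and 0.0573% to 0.111% of a microfilaria library. A few genes took a large share of this. WBGene00230510 alone held 9.93% of the adult genes' reads in untreated females and 13.8% in untreated males. In untreated microfilariae WBGene00228190 took the most, 8.26%. Its level there was 51.2, 57.1 and 58.7 CPM on day 1 and 47.6 and 54.2 CPM on day 7, against a median of 773 CPM in untreated females. CPM is not scaled to gene length, so genes are not ranked by expression level.

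**Figure D1:**
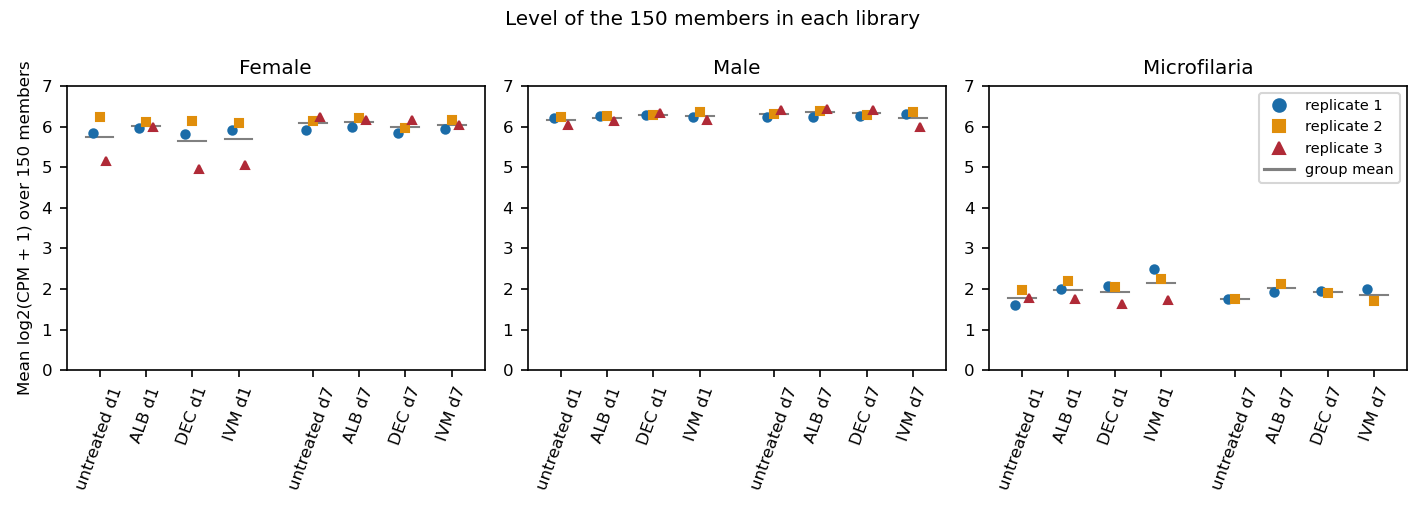
Mean log2(CPM + 1) over the 150 adult genes (vertical axis) in each of the 68 libraries, by treatment and day (horizontal axis: ALB albendazole, DEC diethylcarbamazine, IVM ivermectin; d1 day 1, d7 day 7), with replicates as symbols and the group mean as a line. Adult libraries sit between 4.94 and 6.44 and microfilaria libraries between 1.60 and 2.50, and the lowest 3 adult points are the day 1 female libraries of replicate 3 from untreated, diethylcarbamazine and ivermectin animals.

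Averaged over all 150 genes, the level on the log2(CPM + 1) scale was 5.92 ± 0.41 (SD, n = 6) in untreated females and 5.92 ± 0.35 (SD, n = 18) in females of treated animals. It was 6.24 ± 0.12 (SD, n = 6) and 6.28 ± 0.11 (SD, n = 18) in males. In microfilariae it was 1.77 ± 0.13 (SD, n = 5) without drug and 1.98 ± 0.23 (SD, n = 15) with drug. The plot of this level by library shows male libraries close together and 3 female libraries below the rest. Over the drug libraries, the coefficient of variation of an adult gene had a median of 25.6% in females, 17.5% in males and 36.0% in microfilariae.

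Because the untreated libraries had chosen the genes, the stage difference was tested only in the 51 libraries of drug-treated animals, which the choice had not used. In these, all 150 adult genes were higher in females than in microfilariae, and all 150 were higher in males than in microfilariae (edgeR quasi-likelihood test, Benjamini-Hochberg adjusted p below 0.05). Of the 10876 genes tested, 38.6% were higher in females and 43.0% were higher in males. The median log2 fold change of the adult genes was 4.18 for females against microfilariae and 4.65 for males against microfilariae, while over all genes it was -0.01 and 0.00. For 142 of the 150, every one of the 36 adult libraries lay above every one of the 15 microfilaria libraries, which was so for 6.92% of all 11504 genes with a read in these libraries. The same ranking made on the drug libraries shared 132 of its 150 genes with the original list.

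**Figure D2:**
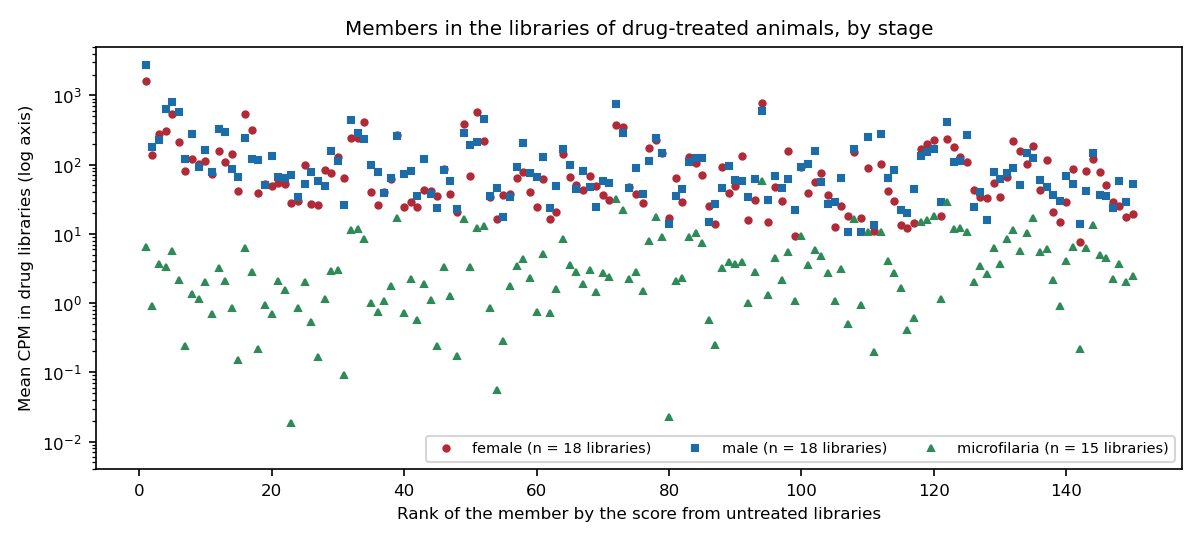
Mean CPM in drug libraries (vertical log axis) of each of the 150 adult genes, ordered by their rank in the untreated libraries (horizontal axis), for females (18 libraries), males (18 libraries) and microfilariae (15 libraries). Microfilaria means lie below both adult means for every gene, and the distance narrows towards the last ranks, as the ranking itself sets.

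The smallest p in both comparisons belonged to WBGene00225705. In drug libraries its level was 217 to 405 CPM with a median of 361 in females, 239 to 316 CPM with a median of 287 in males, and 19.0 to 26.9 CPM with a median of 22.7 in microfilariae. It is among the steadiest members, with no overlap between adults and larvae. The log2 fold change was 3.84 (SE 0.07, edgeR adjusted p = 2.7e-34) for females against microfilariae and 3.65 (SE 0.07, edgeR adjusted p = 1.1e-34) for males against microfilariae.

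WBGene00230681 had the next smallest p for females. Its levels in drug libraries were 189 to 370 CPM with a median of 319 in females, 91.5 to 149 CPM with a median of 122 in males, and 1.58 to 4.49 CPM with a median of 2.69 in microfilariae. The female difference from microfilariae was 6.70 on the log2 scale (SE 0.12, edgeR adjusted p = 1.8e-33). WBGene00227366 followed for males, with 62.1 to 119 CPM (median 79.6), 22.2 to 56.0 CPM in females (median 44.4) and 1.36 to 3.04 CPM in microfilariae (median 1.74). Its male difference from microfilariae was 5.4 (SE 0.10, edgeR adjusted p = 2.4e-34). In both genes the 3 stages formed 3 separate ranges, with the sexes in opposite order.

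Within each drug and day the same held for nearly all members. Each of the 10 contrasts of an adult sex with microfilariae under albendazole, diethylcarbamazine or day 7 ivermectin called all 150 higher, with median log2 fold changes between 4.13 and 4.88. On day 1 of ivermectin the counts were 149 for females and 148 for males, and the medians, 3.85 and 4.22, were the smallest for each sex. For females the share of all genes called higher was 26.7%, 30.9% and 28% on day 1 and 24.6%, 23.3% and 24.7% on day 7 (albendazole, diethylcarbamazine, then ivermectin). For males it was 33.7%, 35.1% and 33.8% on day 1 and 32.8%, 33% and 34% on day 7.

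The rule limited the sex ratio only in untreated libraries, and there males were the higher sex for more of the genes. The female mean exceeded the male mean in 58 adult genes and was below it in 92, whereas females were higher in 3941 of the 6696 genes that met the level and sex limits. By at least 1.5-fold, 28 genes leaned to females and 64 to males, and 58 lay between. In the drug libraries the sexes were tested against each other: 38 adult genes were higher in females and 86 were higher in males, with a median log2 difference (females minus males) of -0.56. The same test called 43.5% of all genes higher in females and 41.0% higher in males, with a median of 0.05. Without the day 7 male ivermectin library of replicate 3, adult genes called were 150 for each sex against microfilariae, 37 higher in females and 89 higher in males. In either direction, that fit called 77.9% of all genes for females against microfilariae, 85.5% for males against microfilariae and 84.6% between the sexes. Of the 28 that leaned to females 27 were called in that direction, and all 64 that leaned to males were called higher in males. Of the 58 between them, 11 were called higher in females and 22 in males.

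WBGene00230016, 1 of the 2 genes with the highest female to male ratio, had the smallest p among those higher in females. Its level in drug libraries was 118 to 190 CPM in females (median 161) and 31.3 to 70.6 CPM in males (median 51.4). No male library reached any female library, and the log2 difference was 1.57 (SE 0.08, edgeR adjusted p = 9.9e-21). WBGene00226097 followed, with 72.3 to 131 CPM in females, 35.2 to 70.6 CPM in males and a difference of 1.19 (SE 0.07, edgeR adjusted p = 1.3e-17). Its ranges came close to each other but did not overlap.

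In the male direction, WBGene00229189 had 160 to 238 CPM in males (median 192) and 28.2 to 106 CPM in females (median 68.3), a difference of -1.63 (SE 0.08, edgeR adjusted p = 8.6e-21). WBGene00228000 had 66.8 to 128 CPM in males (median 103) and 29.3 to 49.1 CPM in females (median 37.3), a difference of -1.47 (SE 0.07, edgeR adjusted p = 1.8e-20). In both, all male drug libraries were above all female drug libraries, those with genes of the other sex included. The most uneven genes by the untreated means were WBGene00231314, at 560 CPM in females and 187 CPM in males, and WBGene00228638, at 42.3 CPM in females and 125 CPM in males. WBGene00224692 had 29.3 CPM in females and 84.3 CPM in males.

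The drugs were compared with no drug at each stage and day, in 18 comparisons in which 3 drugs share the same untreated libraries. No adult gene was called in any of them (0 of 150 in females, 0 of 150 in males and 0 of the 135 that passed the filter on low counts in microfilariae), and edgeR called 0 genes of any kind, 0% of those tested, with 33 to 929 genes at an unadjusted p below 0.05. DESeq2 also called 0 adult genes in all 18. The female edgeR tests used 1 fit of all 24 female libraries, with no round in the model. That fit held the day 1 replicate 3 libraries that stood apart. Its common coefficient of variation between libraries was 0.277, against 0.207 in males, so 0 calls in females do not exclude a change. At an unadjusted p below 0.05, edgeR gave 0, 1 and 1 adult genes in females on day 1 for albendazole, diethylcarbamazine and ivermectin, beside 0.809%, 1.99% and 0.896% of all genes, and 0, 0 and 0 on day 7, beside 0.74%, 1.01% and 0.965%. In males the counts were 2, 6 and 16 on day 1, beside 2.59%, 4.54% and 8.98% of all genes. On day 7 they were 1, 1 and 18, beside 0.406%, 0.831% and 5.59%. The 16 and 18 are 10.7% and 12% of the adult genes, and without ivermectin day 7 male replicate 3 the 18 became 13. The 5.59% is from the fit with that library, so the 13 is not read against it. In microfilariae they were 7, 1 and 36 of the 135 genes on day 1, beside 4.94%, 1.14% and 8.1% of all genes, and 4, 0 and 0 on day 7, beside 0.747%, 0.757% and 0.324%. The 36 are 26.7% of the 135, in a comparison whose untreated libraries also chose the genes.

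In adults the drug and untreated levels lay close together. The median log2 fold change of the adult genes ran from -0.08 to 0.08 over the 6 female comparisons and from -0.01 to 0.02 over the 6 male ones. The smallest p in females belonged to WBGene00233050 under ivermectin on day 1, with 15.5, 15.7 and 8.14 CPM against 15.7, 23.3 and 13.6 CPM untreated. These ranges overlap (log2 fold change -0.44, SE 0.18, edgeR adjusted p = 1.00). In males it belonged to WBGene00231147 under ivermectin on day 1, with 52.6, 75.4 and 74.3 CPM against 53.8, 41.1 and 39.9 CPM untreated. Here 2 of 3 treated libraries were above all untreated ones, and the log2 fold change of 0.50 (SE 0.15) had an edgeR adjusted p of 0.529. Without untreated day 1 male replicate 1 it was 0.62 with an edgeR adjusted p of 0.0359, in a range of 0.0359 to 1.00 over 11 alternatives. Without that library the number of adult genes called in day 1 males rose from 0 to 2 for albendazole, 3 for diethylcarbamazine and 9 for ivermectin, beside 0.731%, 1.93% and 3.12% of all genes.

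**Figure D3:**
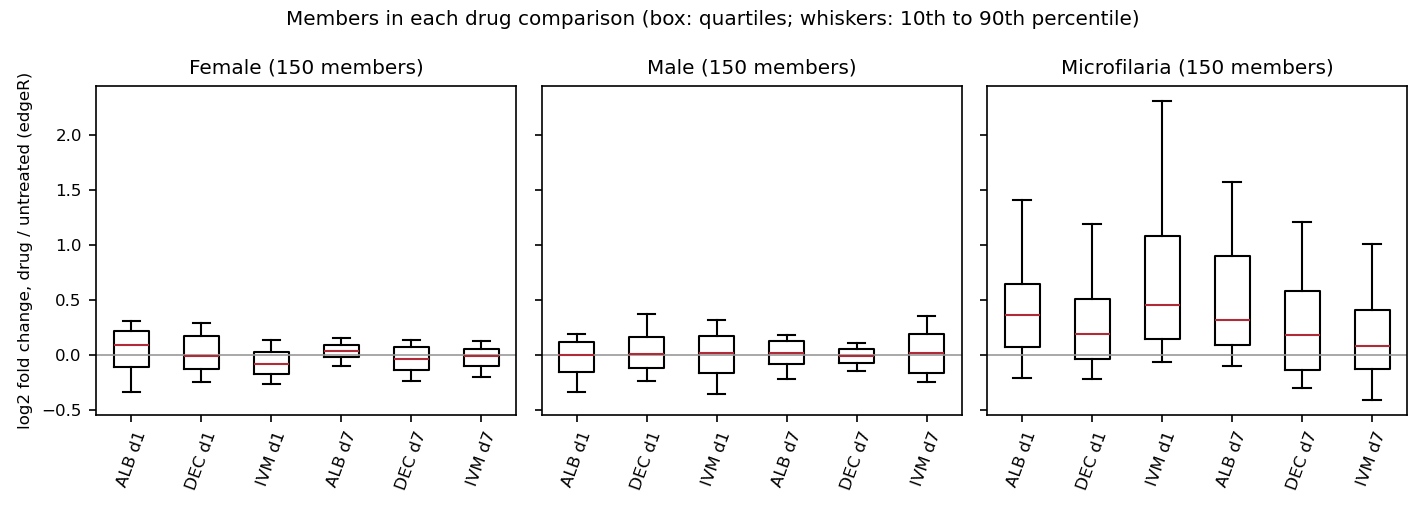
Log2 fold change of the adult genes, drug over untreated (vertical axis, edgeR), for each drug and day (horizontal axis: ALB, DEC, IVM; d1, d7) in females, males and microfilariae; red line median, box quartiles, whiskers the 10th to the 90th percentile of 150 genes. Medians lie within 0.08 of 0 in adults and between 0.08 and 0.45 in microfilariae, where the untreated libraries that form the denominator also chose the genes.

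In microfilariae the medians lay above 0. Over all 150 genes, with no filter on low counts, the median log2 fold change was 0.36 for albendazole, 0.19 for diethylcarbamazine and 0.45 for ivermectin on day 1. On day 7 it was 0.32, 0.18 and 0.08. The treated mean exceeded the untreated mean in 119, 106 and 129 of the 150 genes on day 1 and in 126, 105 and 90 on day 7. The genes had been chosen for a low mean in these same untreated microfilariae, so a higher value elsewhere is partly fixed by the choice, and no drug effect is read from these counts. WBGene00225451 had the smallest p, under albendazole on day 1, with 4.38, 4.07 and 2.62 CPM against 1.55, 1.66 and 1.75 CPM untreated. All treated values were above all untreated ones, and the log2 fold change was 1.17 (SE 0.33, edgeR adjusted p = 0.769).

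The level in microfilariae also differed between libraries of 1 group. Replicates 1, 2 and 3 of ivermectin day 1 had mean levels of 2.50, 2.24 and 1.74 on the log2(CPM + 1) scale, and the first 2 were the highest of all 20 microfilaria libraries. Untreated day 1 replicates had 1.60, 1.96 and 1.78, and ivermectin day 7 replicates had 2.00 and 1.71. The 150 genes that rank next by the rule averaged 3.08, 2.83 and 2.51 in the ivermectin day 1 replicates. Untreated day 1 replicates gave 2.34, 2.75 and 2.52 for them. The lists of sex-restricted genes also moved with the adult genes. In the ivermectin day 1 libraries the female-restricted genes averaged 1.88, 1.68 and 1.15 and the male-restricted genes 1.66, 1.30 and 0.59. Their summed share of reads in single microfilaria libraries ran from 0.0303% to 0.0613% for the female list and from 0.00942% to 0.0409% for the male list, with the top of both in ivermectin day 1 replicate 1. Of the 150 male-restricted genes, 4 had no read in that library and 30 had none in replicate 3 of the same group. Over the untreated microfilaria libraries the shares were 0.0303% to 0.0418% and 0.00942% to 0.0172%. Both sex-restricted lists were ranked in part on low means in these same untreated microfilariae. A lower share there is therefore partly fixed by the choice. The part of adult RNA in these values was not tested.

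**Figure D4:**
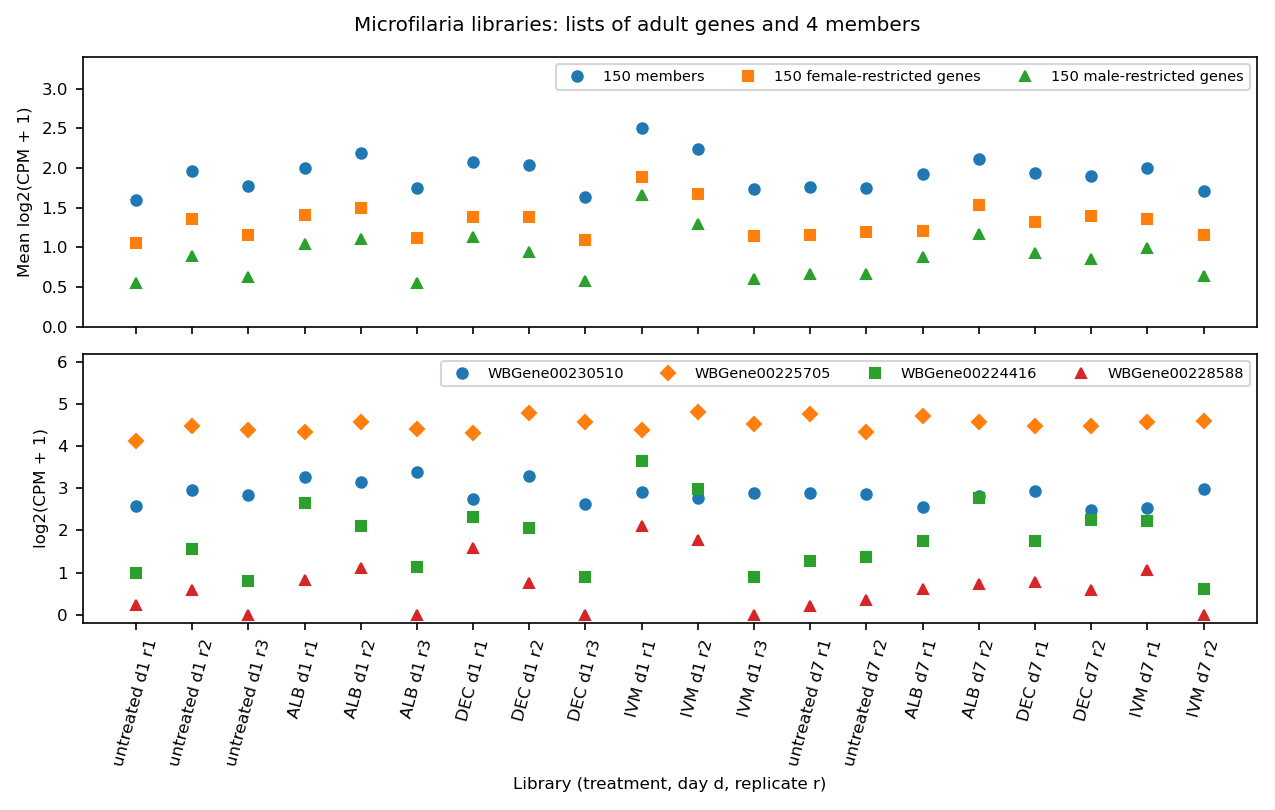
Upper panel, mean log2(CPM + 1) of the 150 adult genes, the 150 female-restricted and the 150 male-restricted genes in each of the 20 microfilaria libraries; lower panel, log2(CPM + 1) of 4 adult genes in the same libraries (horizontal axis: treatment, day d and replicate r). The 3 lists rise and fall together, with the highest values in ivermectin day 1 replicate 1 (2.50, 1.88 and 1.66), while WBGene00230510 and WBGene00225705 are not at their highest in that library and WBGene00228588 is at 0 in all 4 day 1 libraries of replicate 3.

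The members did not all follow this pattern. WBGene00230510, with the most reads in adults, lay between 4.6 and 9.42 CPM in all 20 microfilaria libraries, and ivermectin day 1 gave 6.50, 5.76 and 6.43 CPM. WBGene00224416, by contrast, had 11.6, 6.89 and 0.867 CPM in ivermectin day 1 and 0.982, 1.96 and 0.728 CPM in untreated day 1. Albendazole day 1 gave 5.23, 3.31 and 1.18 CPM and diethylcarbamazine day 1 gave 4, 3.19 and 0.848 CPM. Replicate 3 was the lowest of every day 1 group for this gene.

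Whether a drug difference changed from day 1 to day 7 was tested for each stage and drug, and edgeR called 0 adult genes and 0% of all genes in these 9 comparisons. Adult genes with an unadjusted p below 0.05 numbered at most 35, for ivermectin in males, which is 23.3% of the adult genes beside 11.4% of all genes, and DESeq2 called 0. The 11.4% is from the fit with every male library. Without ivermectin day 7 male replicate 3, which stands apart, the 35 became 20, which is not read against that share. The smallest p there belonged to WBGene00221648, with 14.5, 19.0 and 16.1 CPM on day 1 and 13.3, 13.3 and 8.21 CPM on day 7 under ivermectin, and 14, 9.86 and 8.48 CPM on day 1 and 17.1, 15.4 and 15.8 CPM on day 7 untreated. The lowest of its ivermectin day 7 values, 8.21 CPM, is from that library. The difference of log2 fold changes was -0.88 (SE 0.23, edgeR adjusted p = 0.390), and -0.81 without that library (edgeR adjusted p = 0.660). Without untreated day 1 male replicate 1, edgeR called 9 adult genes for ivermectin in males, WBGene00221648 among them (-1.10, edgeR adjusted p = 0.00992), beside 3.85% of all genes.

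Days were also compared directly. In the 6 comparisons of day 7 with day 1, for untreated and for drug libraries of each stage, edgeR called 0 adult genes and 0% of all genes. The adult genes with an unadjusted p below 0.05 numbered 4 and 9 in females (untreated, then drugs), 19 and 15 in males, and 1 and 1 in microfilariae. Over all genes the shares were 2.81% and 12.1%, 9.43% and 3.19%, and 0.688% and 4.87% in the same order. Without untreated day 1 male replicate 1, edgeR called 12 adult genes between the untreated male days, beside 4.84% of all genes. DESeq2 called 1, WBGene00230016, in males of treated animals, where it called 0.00877% of all genes. Its 9 day 1 values ran from 49.8 to 70.6 CPM and its 9 day 7 values from 31.3 to 59.8 CPM, so the days overlap. The log2 difference was -0.42 (SE 0.08, edgeR adjusted p = 0.595, DESeq2 adjusted p = 0.0171). In microfilariae of treated animals 103 of the 135 genes tested were lower on day 7, with a median of -0.19, as were 5513 of all 10174, with a median of -0.01. The sex-restricted lists were also high in the day 1 ivermectin libraries of replicates 1 and 2, and their part in this difference was not tested. Day differences in females and males of treated animals were then compared with each other, and 0 adult genes were called by edgeR and by DESeq2, with 2 at an unadjusted p below 0.05, beside 5.42% of all genes.

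Adult genes were also tested against the replicate number, which stands for the round of the experiment. With treatment in the model, an edgeR test of the replicate number called 103 of the 150 adult genes in day 1 females, beside 54.8% of all genes tested, and 76 in day 7 females, beside 37.9%. In day 1 microfilariae it called 28 of 134 genes tested (31.9% of all) and in day 7 microfilariae 6 of 121 (16.8% of all). In males it called 0 on day 1 (0.0389% of all) and 0 on day 7 (0% of all), with 47 and 36 adult genes at an unadjusted p below 0.05 (25.1% and 9.21% of all), while DESeq2 called 30 (14.5% of all) and 20 (2.39% of all). The 0 of day 7 males became 47 adult genes, beside 15.7% of all genes, without the ivermectin library of replicate 3 that stands apart, and 52, beside 16.5%, without the whole ivermectin group. In day 1 females the count fell to 0 without the untreated group (0.45% of all genes), 0 without diethylcarbamazine (0.592%) and 3 without ivermectin (1.27%). It fell to 56 without 3 libraries of replicate 3 that are described next (22.2%), and it rose to 132 without albendazole (72.2%). In day 1 microfilariae the count fell to 6 without albendazole (9.85%), 6 without ivermectin (14.2%) and 15 without diethylcarbamazine (26.5%). It rose to 41 without the untreated group (28.1%).

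In day 1 females replicate 3 of 3 groups stood apart. The mean level of the adult genes in replicate 3 was 5.16 untreated, 4.94 with diethylcarbamazine and 5.05 with ivermectin, and 6.00 with albendazole, while the other day 1 female libraries lay between 5.82 and 6.24. Against the mean of replicates 1 and 2, the median log2 difference over the adult genes was -1.03 untreated, -1.24 with diethylcarbamazine and -1.07 with ivermectin, and -0.06 with albendazole. In all 3 of the first groups 126 genes were lower and 14 were higher. Of these, 77 were also lower and 4 also higher in the albendazole library. Such counts were made for the adult genes only, not over all genes.

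**Figure D5:**
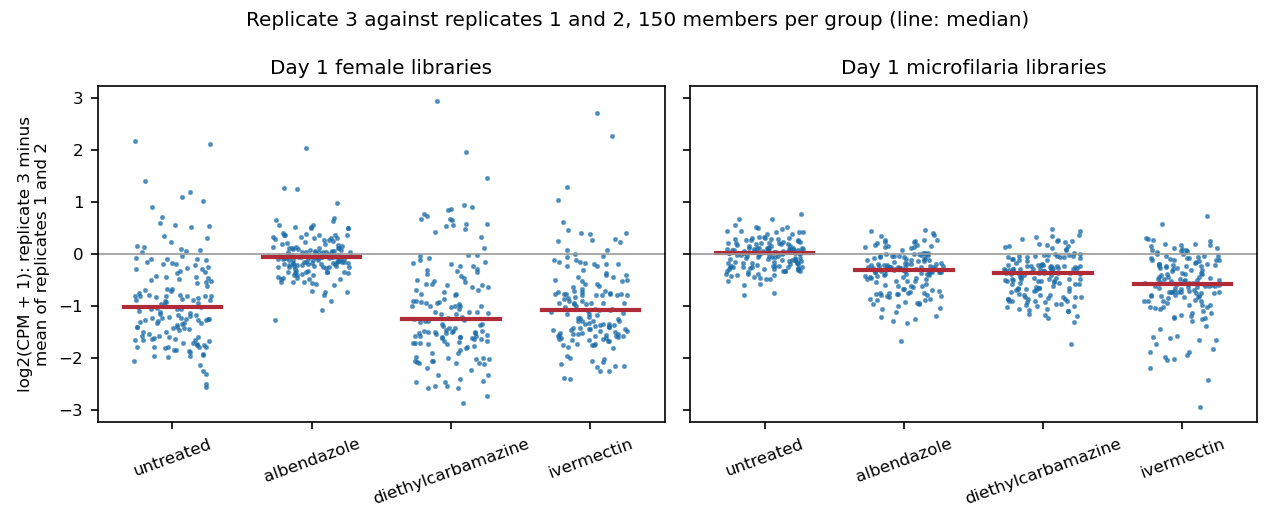
Difference in log2(CPM + 1) between replicate 3 and the mean of replicates 1 and 2 (vertical axis) for each of the 150 adult genes (points), by treatment (horizontal axis), in day 1 females and day 1 microfilariae; red lines are medians. In females the medians are -1.03, -0.06, -1.24 and -1.07 from left to right, and in microfilariae 0.02, -0.30, -0.37 and -0.57.

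The size of this drop depends on the scaling, since the 3 libraries had TMM factors of 0.715, 0.620 and 0.717 where the albendazole library had 1.13. On the TMM scale their mean levels were 5.62, 5.60 and 5.51. In the test of replicate 3 against replicates 1 and 2, edgeR called 97 adult genes, 25 higher and 72 lower, beside 27.8% of all genes higher and 24.9% lower. The median log2 difference was -0.39 for the adult genes and -0.03 for all genes with TMM, and -0.88 and -0.53 with library totals alone, where 10 were called higher and 106 lower beside 59.8% of all genes in either direction. Without the 3 libraries the test called 3 adult genes and 0.158% of all genes. Without the untreated, diethylcarbamazine or ivermectin group it called 44, 38 and 38, beside 19.8%, 14.4% and 16.5%. Without the albendazole group it called 122, beside 68%. On CPM before TMM scaling, the female-restricted genes were low in the same libraries, at a mean log2(CPM + 1) of 6.11, 5.87 and 5.84. Their level was not computed on the TMM scale, and their part in the result was not tested.

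WBGene00221284 and WBGene00221117 had the smallest p among the genes that fell. In replicates 1, 2 and 3 WBGene00221284 had 120, 119 and 19.6 CPM untreated, 108, 175 and 57 CPM with albendazole, 91.8, 117 and 13.5 CPM with diethylcarbamazine, and 68.5, 80.7 and 25.3 CPM with ivermectin. Replicate 3 was the lowest in each of the 4 groups, albendazole included (log2 difference -1.55, SE 0.19, edgeR adjusted p = 0.00270). WBGene00221117 differed by -0.96 (SE 0.12, edgeR adjusted p = 0.00270), with 168, 211 and 52 CPM untreated and 197, 199 and 133 CPM with albendazole. It was not called without the 3 libraries (edgeR adjusted p = 0.144). In day 1 males, WBGene00221284 had 282, 435 and 210 CPM untreated, 298, 314 and 104 CPM with albendazole, 238, 321 and 247 CPM with diethylcarbamazine and 329, 365 and 115 CPM with ivermectin. Replicate 3 was the lowest male library of 3 groups, and diethylcarbamazine was the exception.

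Among the genes called higher in replicate 3 of day 1 females, WBGene00227368 had the smallest p. Its untreated CPM in replicates 1, 2 and 3 were 20.2, 29.1 and 30.1, and those of treated animals were 21.5, 19.8 and 41.7 with albendazole, 20.4, 27.6 and 35.7 with diethylcarbamazine, and 25, 24.7 and 34.6 with ivermectin. Replicate 3 was the highest of every group (log2 difference 1.11 with TMM, SE 0.12, edgeR adjusted p = 0.00243). WBGene00223982 differed by 0.92 (SE 0.14, edgeR adjusted p = 0.00292), although its ivermectin values of 37.1, 30.8 and 33.8 CPM do not set replicate 3 apart before TMM scaling, and with library totals alone its edgeR adjusted p was 0.0525. Neither gene was called without the 3 libraries (edgeR adjusted p = 0.159 and 0.205). A wider rise in CPM was that of WBGene00228131, named after its values were seen. It had 20.6, 19.8 and 93.9 CPM untreated, 17.5, 21.2 and 17.1 CPM with albendazole, 9.52, 19.3 and 110 CPM with diethylcarbamazine and 13.5, 18.9 and 110 CPM with ivermectin.

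On day 7 replicate 1 was the female round that stood apart for some genes. WBGene00269212 had 8.05, 74.1 and 80.8 CPM in replicates 1, 2 and 3 of untreated females, 15, 90.5 and 81.1 CPM with albendazole, 8.28, 50.2 and 85.7 CPM with diethylcarbamazine and 14, 66.7 and 67.4 CPM with ivermectin. All replicate 1 values were below all others. In day 1 females replicate 1 gave 10.2 to 11.2 CPM and replicate 2 gave 31.8 to 64.3 CPM, while replicate 3 gave 45.8 CPM with albendazole and 8.21 to 12.6 CPM in the other groups. Day 7 males gave 63.7, 152 and 163 CPM untreated and 53.2, 176 and 177 CPM with albendazole, and 96.2, 105 and 94.7 CPM with ivermectin. The log2 difference of replicate 3 from replicates 1 and 2 in day 7 females was 1.42 (SE 0.12, edgeR adjusted p = 1.9e-04). WBGene00223027 differed by 1.12 in the same test (SE 0.13, edgeR adjusted p = 0.00135), with 4.34, 16.8 and 21.5 CPM untreated.

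That test called 23 adult genes higher and 8 lower in day 7 females, beside 3.92% and 2.41% of all genes. The 31 calls became 8 without the untreated group (1.08% of all genes), 7 without diethylcarbamazine (0.903%), 20 without ivermectin (3.42%) and 22 without albendazole (4.02%). The lower ones named here differed by little. WBGene00231343 had 199, 166 and 174 CPM untreated (log2 difference -0.20, SE 0.04, edgeR adjusted p = 0.0214), and WBGene00225344 differed by -0.21 (SE 0.05, edgeR adjusted p = 0.0225). WBGene00231343 lost its call when any 1 of the 4 treatment groups was left out (edgeR adjusted p = 0.0547 to 0.121), and WBGene00225344 without albendazole, diethylcarbamazine or ivermectin (edgeR adjusted p = 0.0688 to 0.12). In day 1 males 3 adult genes were higher in replicate 3 and 3 were lower, beside 1.05% and 1.97% of all genes. These 6 became 0 without the untreated, albendazole or ivermectin group (0.0491%, 0% and 0.00974% of all genes) and 10 without diethylcarbamazine (3.56%). They also became 0 without the libraries that held genes of the other sex (0.00972%), while DESeq2 called 30 (13.5%). The genes named next for day 1 males all lost their call without those libraries (edgeR adjusted p = 0.0751 to 0.0898). WBGene00228071 had 114, 166 and 249 CPM untreated and differed by 0.68 (SE 0.12, edgeR adjusted p = 0.0483), and WBGene00223036 differed by 1.16 (SE 0.21, edgeR adjusted p = 0.0483). WBGene00224203 differed by -1.34 (SE 0.28, edgeR adjusted p = 0.0493), with 20.2, 19.6 and 11.2 CPM in untreated males, 19.5, 31.7 and 5.95 CPM with albendazole, 27, 29.5 and 19.5 CPM with diethylcarbamazine and 28, 33.6 and 6.87 CPM with ivermectin. In day 1 females the same gene had 45.3, 49.4 and 9.27 CPM untreated, 43.2, 41.4 and 36 CPM with albendazole, 34.7, 32.7 and 4.84 CPM with diethylcarbamazine and 36.8, 46.3 and 7.96 CPM with ivermectin. Replicate 3 was the lowest of each group, by the least in females with albendazole and males with diethylcarbamazine. WBGene00228588 differed by -0.51 in day 1 males (SE 0.11, edgeR adjusted p = 0.0493). In day 7 males edgeR called 0 (0% of all genes), with 19 at an unadjusted p below 0.05 (4.52% of all), and DESeq2 also called 0. Without the ivermectin library of replicate 3 that stands apart, edgeR called 16 there, 6 higher and 10 lower, beside 10.3% of all genes.

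In day 1 microfilariae replicate 3 was lower than replicates 1 and 2 for 32 adult genes and higher for 0, beside 7.89% of all genes lower and 10.2% higher. The median log2 difference was -0.39, and 0.00 over all genes. By treatment the median was -0.57 for ivermectin, -0.37 for diethylcarbamazine, -0.30 for albendazole and 0.02 for untreated larvae. Lower in all 3 drug groups were 102 of the 150 genes, and 53 were lower in all 4 groups. Neither count was made over all genes. In replicate 3 of albendazole, diethylcarbamazine and ivermectin, 18, 19 and 14 of the 150 genes had no read. In replicates 1 and 2 of these groups it was 2 or 3 genes. The count of 32 fell to 4 without the albendazole group (5.51% of all genes), 10 without diethylcarbamazine (12%) and 0 without ivermectin (3.03%). It rose to 42 without the untreated group (19.4%).

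WBGene00228588, second by score, had the smallest p. Its values in replicates 1, 2 and 3 were 0.164, 0.491 and 0 CPM untreated, 0.769, 1.15 and 0 CPM with albendazole, 2, 0.693 and 0 CPM with diethylcarbamazine and 3.29, 2.4 and 0 CPM with ivermectin (edgeR adjusted p = 0.00351, and 0.0578 without the ivermectin group). All 4 libraries of replicate 3 were at 0 while replicates 1 and 2 averaged 1.37 CPM, which is at least 18.8-fold higher than the 0.0729 CPM that 3 reads over these 4 libraries would give. WBGene00228131 had 0, 0.552 and 0 CPM untreated, 0.769, 1.61 and 0 CPM with albendazole, 1.89, 0.693 and 0 CPM with diethylcarbamazine and 3.55, 1.95 and 0 CPM with ivermectin. It too was at 0 in all 4 libraries of replicate 3, and also in untreated replicate 1. Its mean of 1.38 CPM in replicates 1 and 2 is at least 18.9-fold higher than that floor. In adult females of the same round that gene was at its highest in 3 libraries, as given above. WBGene00224416, whose values stand above, differed by -2.12 (SE 0.39, edgeR adjusted p = 0.00426), and by -1.60 without the ivermectin group (edgeR adjusted p = 0.053, in a range of 1.3e-05 to 0.053 over 8 alternatives).

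Day 7 microfilariae had 2 rounds. Replicate 2 was higher than replicate 1 for 5 adult genes and lower for 1, beside 7.97% and 8.79% of all genes. These 6 became 0 without the untreated, albendazole or ivermectin group (5.7%, 3.23% and 8.57% of all genes) and 11 without diethylcarbamazine (24.5%). WBGene00231058 had 2.47 and 7.40 CPM untreated, 3.28 and 11.4 CPM with albendazole, 7.01 and 6.31 CPM with diethylcarbamazine and 3.4 and 6.94 CPM with ivermectin. It was higher in replicate 2 of 3 groups out of 4 (log2 difference 1.08, SE 0.28, edgeR adjusted p = 0.0221). WBGene00231166 differed by 0.44 (SE 0.11, edgeR adjusted p = 0.0231). WBGene00225455, the gene that was lower, had 4.93 and 3.26 CPM untreated, 8 and 5.81 CPM with albendazole, 7.76 and 4.26 CPM with diethylcarbamazine and 6.81 and 3.05 CPM with ivermectin. Replicate 2 was below replicate 1 in every group (log2 difference -0.70, SE 0.19, edgeR adjusted p = 0.0283).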

How the data were processed

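The authors deposited 1 table of raw counts, with genes in rows and libraries in columns, and no normalisation. The submitters' processing notes name HTSeq 0.6.1p1 and TopHat2 2.0.14. Roles, options, build and annotation are not given in the sources used here. The kit marked strand, per the labels' protocols. Reads of near-identical gene copies may have been split.

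Columns were joined to samples by the names in the labels. CPM used column totals, and log2 values used CPM + 1. Tests were edgeR 4.0.16 quasi-likelihood tests (R 4.3.3) with TMM factors, filterByExpr (minimum count 10, minimum total 15) and Benjamini-Hochberg adjustment over all genes tested, at 0.05. The stage tests used the 51 drug libraries, the drug and day tests all libraries of a stage, and the round tests those of a stage and day with treatment in the model. Standard errors are the log2 fold change divided by the square root of F. The scripts were tested on simulated data. Alternatives were DESeq2 1.42.0, its size factors, no filter, a replicate block and leaving out libraries.

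The members, the lists and the rule for named genes were chosen with earlier results of these data known. Named were the genes with the 2 highest and 2 lowest scores, the first 2 outside, the 2 with most reads, the 2 highest and lowest female to male ratios, the 2 highest in untreated microfilariae, and in each family of tests up to 2 per direction with the smallest p, or the single smallest where none passed. WBGene00225514, named by this rule, is described in the closing section. The female-restricted and male-restricted lists hold the 150 genes with the highest ratio of that sex's untreated mean to the larger of the other stages' means plus 1 CPM.

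Replicate numbers pair libraries, since the design text makes each replicate a round with all treatments. Deviations from group means correlated between same-numbered libraries with a median of 0.54 in day 1 females, 0.28 in day 7 females, 0.20 and 0.16 in day 1 and day 7 males, and 0.46 and 0.20 in day 1 and day 7 microfilariae. No 2 libraries of a group agreed within counting noise.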

Additional observations from a re-analysis of the deposited data

Results flagged for a closer look

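Of 42 groups of 4 to 10 libraries examined for 1 library far from the others, 6 held such a library, where chance alone gives about 1 in 20 groups. The 6 come from 3 day 1 female libraries of replicate 3, the untreated one 4 times, and the 42 groups reuse the same libraries for single genes, so they are not independent. The mean level of the adult genes on the log2(CPM + 1) scale was 4.94 in the diethylcarbamazine library, where the 6 female libraries of that drug had a median of 5.90. It was 5.05 in the ivermectin library, against a median of 5.99, and 5.16 in the untreated library, against a median of 6.02. These levels are on CPM before TMM scaling, and the search was not repeated on the TMM scale. There the same libraries had 5.60, 5.51 and 5.62 (diethylcarbamazine, ivermectin, untreated). Among single genes in untreated females, that same untreated library gave WBGene00224692 at 7.62 CPM (group median 33.8 CPM) and WBGene00231314 at 304 CPM (group median 591 CPM), both lower than in the other 5. It gave WBGene00225514, 1 of the 2 adult genes with the highest mean in untreated microfilariae, at 641 CPM, higher than in the other 5 (group median 341 CPM). WBGene00225514 was also high in replicate 3 of diethylcarbamazine and ivermectin day 1, at 672 and 539 CPM, and not in that of albendazole, at 341 CPM.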

How the results depend on the processing

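All stage counts kept their direction and stayed within 1.5 times of the main count. This held under DESeq2, its size factors, no filter, the replicate block and each replicate number left out. The list was remade only in other ways: 142 genes were shared under TMM scaling, 127 using day 1 and 135 using day 7 alone. The levels were repeated only under TMM scaling, where each mean moved by less than its SD. The SD in females fell there from 0.41 to 0.18 untreated and from 0.35 to 0.15 with drug. With a replicate block, 150, 150 and 130 adult genes were called for females against microfilariae, males against microfilariae and females against males. In either direction, the shares of all genes called were 78.9%, 86.2% and 85.7%. In every drug, day and interaction comparison 0 adult genes were called, so the block changed no call count by over 1.5 times. Leaving out all libraries of 1 replicate number gave 116 to 129 adult genes for females against males, beside 78.5% to 83.8% of all genes. Leaving out a single library gave, for day 1 males, 0 to 2 with albendazole, 0 to 3 with diethylcarbamazine and 0 to 9 with ivermectin. In males it also gave 0 to 9 for the ivermectin difference between days, and 0 to 12 for the untreated days (beside at most 4.84% of all genes). Each highest count came without untreated day 1 male replicate 1. DESeq2 called 1 adult gene between days in males of treated animals.

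The round tests moved most. In day 1 females 103 genes became 0 without the untreated or the diethylcarbamazine group, 3 without ivermectin and 132 without albendazole (72.2% of all genes). They became 56 without the 3 libraries of replicate 3 that stood apart, an alternative chosen after seeing the data. In day 1 males DESeq2 gave 30 and the fit without diethylcarbamazine 2 (1.08% of all genes), and in day 7 males DESeq2 gave 20, the fit without ivermectin 52 (16.5% of all genes) and the fit without the ivermectin library of replicate 3 that stood apart 47 (15.7%), an alternative also chosen after seeing the data. In day 1 microfilariae 28 became 6 without albendazole, 15 without diethylcarbamazine, 6 without ivermectin and 41 without the untreated group (28.1% of all genes). In day 7 microfilariae 6 became 2 with DESeq2 (11.7% of all genes) and 11 without diethylcarbamazine (24.5%). They became 0 without the untreated, albendazole or ivermectin group. The cause of these moves was not tested, and a fit that left out a group or library also held fewer libraries. Among named genes 40 of 381 repeats lost their call, 3 gained one and 0 reversed. Low counts limit microfilariae: 15 adult genes failed the filter there.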
